A study of Rattus norvegicus with 20 samples.

Results

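Rosiglitazone and resveratrol were compared in subcutaneous fat of male ZDF (Zucker) rats on 10 microarrays, 5 from rosiglitazone-treated and 5 from resveratrol-treated animals, out of 20 arrays in the series. The 10 arrays were taken by their sample titles, and all 36685 transcript clusters of the array were compared, always as rosiglitazone minus resveratrol. The other 10 arrays came from obese rats, kept for 6 weeks on a stock diet, and from lean control rats on a standard chow (5 each), and they serve here only to place the levels of the 2 treated groups. All rats were housed singly on a reversed light cycle with free access to food. The labels give no dose, no length of treatment and no diet for the treated rats, do not state that those rats were obese, and name the tissue only as subcutaneous. The titles number biological replicates within each group but say no more about the animals, so the p-values measure the spread between these samples.

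Rosiglitazone is a thiazolidinedione that activates PPAR gamma, the nuclear receptor that directs the gene programme of fat cells, including genes for fatty acid uptake, storage and release. Resveratrol is a plant polyphenol that has been studied for actions on sirtuins and on the energy sensor AMPK. Fatty acids that are burned rather than stored enter mitochondria through the carnitine shuttle, are shortened by beta-oxidation, and feed the citric acid cycle and the respiratory chain. White fat stores triglyceride in a single large droplet per cell and has few mitochondria, and brown or beige fat has many and carries the uncoupling protein Ucp1. In a piece of bulk tissue, fewer cells of a type and less RNA per cell cannot be told apart.

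Of the 5 adipocyte markers, 4 were not called different between the groups and 1, the leptin gene Lep, was lower with rosiglitazone. Over all clusters with 1 gene symbol 2.45% were called lower. The log2 differences were -0.94 for Lep, -0.21 for Plin1 and -0.053 for Cidec, and the other markers, Adipoq and Fabp4, were at similar levels. Adipoq, the hormone adiponectin, averaged 10.89 ± 0.045 log2 units with rosiglitazone and 10.80 ± 0.11 with resveratrol (SD, n = 5 each), and Fabp4, the fat cell fatty acid carrier, averaged 11.23 ± 0.037 with rosiglitazone and 11.17 ± 0.10 with resveratrol. The rosiglitazone arrays nevertheless differed among themselves in genes of other tissues. Csn1s1, an alpha casein of milk, lay at 10.07, 2.67, 10.69, 2.73 and 10.20 on rosiglitazone arrays 1 to 5, against 3.28, 3.41, 1.53, 1.5 and 1.54 on the resveratrol arrays. Rosiglitazone arrays 1, 3 and 5 thus lay far above the other 7 arrays of the 2 groups. The same 3 arrays were high for Csn3, Lalba and Olah, which encode another casein, alpha-lactalbumin and a fatty acid thioesterase of the mammary gland, and Csn1s1 was also above 5 in obese arrays 3, 4 and 5 and in lean arrays 1, 3, 4 and 5. The epithelial marker Epcam lay between 1.17 and 2.25 on the 5 rosiglitazone arrays and between 1.09 and 1.40 on the resveratrol arrays. Mmrn1, multimerin 1 of platelets and vessel lining, was high on the same 3 rosiglitazone arrays, with 6.34, 3.17, 6.88, 2.89 and 6.23 on the rosiglitazone arrays and 2.86, 2.39, 2.82, 2.48 and 2.51 on the resveratrol arrays. It was not high on the other arrays with high Csn1s1. Mmrn1 lay at 3.26, 3.08 and 3.44 on lean arrays 3, 4 and 5 and at 3.66 and 2.82 on obese arrays 3 and 4. None of these 6 genes was called different on the 10 arrays, and of the 6 only Mmrn1 was in the fit of all 20 arrays (adjusted p = 0.0233).

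Rosiglitazone array 3 stood apart in 2 more ways. Its mean over 4 skeletal muscle markers was 5.96, against 2.69 to 3.20 on the other 4 rosiglitazone arrays and 2.85 to 3.36 on the resveratrol arrays. Acta1, the actin of skeletal muscle, had values of 3.19, 3.29, 7.93, 3.51 and 3.85 on the rosiglitazone arrays. The keratin gene Krt14, the 1 measured keratinocyte marker, reached 6.15 on array 3, against 2.27 to 3.08 on the other 4. Values without array 3, or without arrays 1, 3 and 5, which leaves 2 rosiglitazone arrays, are therefore given where they end a call or move a count by over 1.5 times; the part of these tissues in the differences was not tested. With 2 arrays left a call can end though the difference is no smaller. For Gclc, whose call ended, the log2 difference was 0.64 on the 10 arrays and 0.73 without arrays 1, 3 and 5. For Lep it was -0.94 and -0.40.

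**Figure D1:**
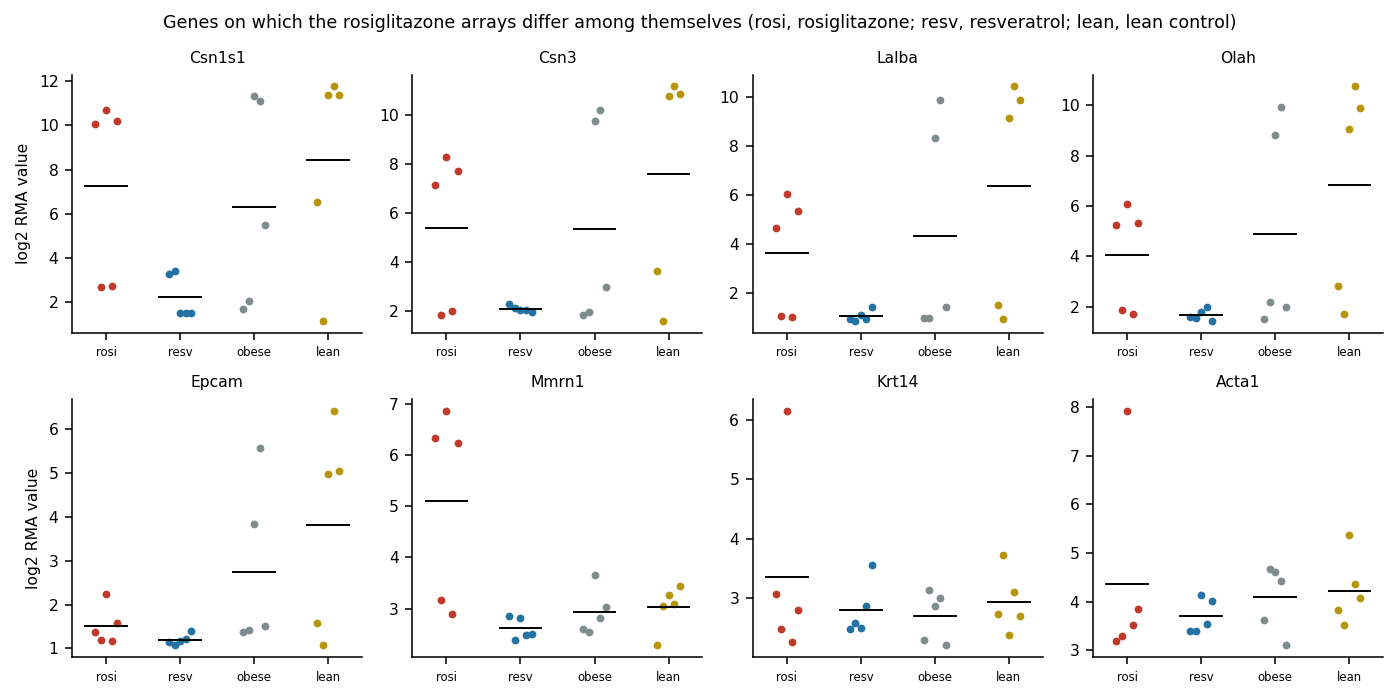
Log2 RMA values (vertical axes) of 8 genes on each array of the 4 groups (horizontal axes; points, arrays in label order; bars, group means). Csn1s1 lies at 10.07, 10.69 and 10.20 on rosiglitazone arrays 1, 3 and 5 and at most at 3.41 on the resveratrol arrays, and rosiglitazone array 3 alone is high for Acta1 within the 2 treated groups.

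Of 36685 clusters, 1422 (3.88%) differed between rosiglitazone and resveratrol at a Benjamini-Hochberg adjusted p under 0.05 in limma's moderated test on the 10 arrays. Rosiglitazone was higher in 807 of them (2.2% of all clusters) and lower in 615 (1.68%). The difference was at least 2-fold in 423 clusters, 251 higher and 172 lower, and at least 4-fold in 54, of which 40 were higher. The 5 arrays of each group did not overlap in 1293 of the 1422 called clusters, and in 2066 (5.63%) of all clusters, with rosiglitazone above in 3.07% and below in 2.57%. When all 20 arrays shared 1 estimate of the spread, 808 clusters were called, 768 of them among the 1422. Without rosiglitazone array 3 the count was 1160 (3.16%), and without arrays 1, 3 and 5 it was 404 (1.1%), of which 359 were among the 1422. The median log2 difference over all clusters was -0.018, and centring each array on its own median moved it to 0.025 and the share of calls that were higher to 65.4%, against 56.8% as reported.

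The array-wide spread also differed. Within single arrays the SD of the log2 values averaged 1.95 ± 0.019 with rosiglitazone and 1.91 ± 0.011 with resveratrol (SD, n = 5 each), and every rosiglitazone array exceeded every resveratrol array (two-sided exact permutation p = 0.00794, adjusted p over 4 array measures = 0.0159). This p is the smallest that 5 against 5 arrays allow. The array median was 0.042 log2 units lower with rosiglitazone (exact permutation p = 0.0317, adjusted p = 0.0423). At the bright end, the 99th percentile was 0.117 higher with rosiglitazone (exact permutation p = 0.00794, adjusted p = 0.0159). It lay between 8.63 and 8.68 with rosiglitazone and between 8.51 and 8.56 with resveratrol. For the 1st percentile the exact permutation p was 0.198. On the first principal component of the 10 arrays, which held 30.3% of the variance of clusters above the median level, all 5 rosiglitazone arrays lay between 17.0 and 34.8 and all 5 resveratrol arrays between -30.5 and -22.6. With the within-array SD as a covariate, 521 clusters were called, 415 of them among the 1422.

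**Figure D2:**
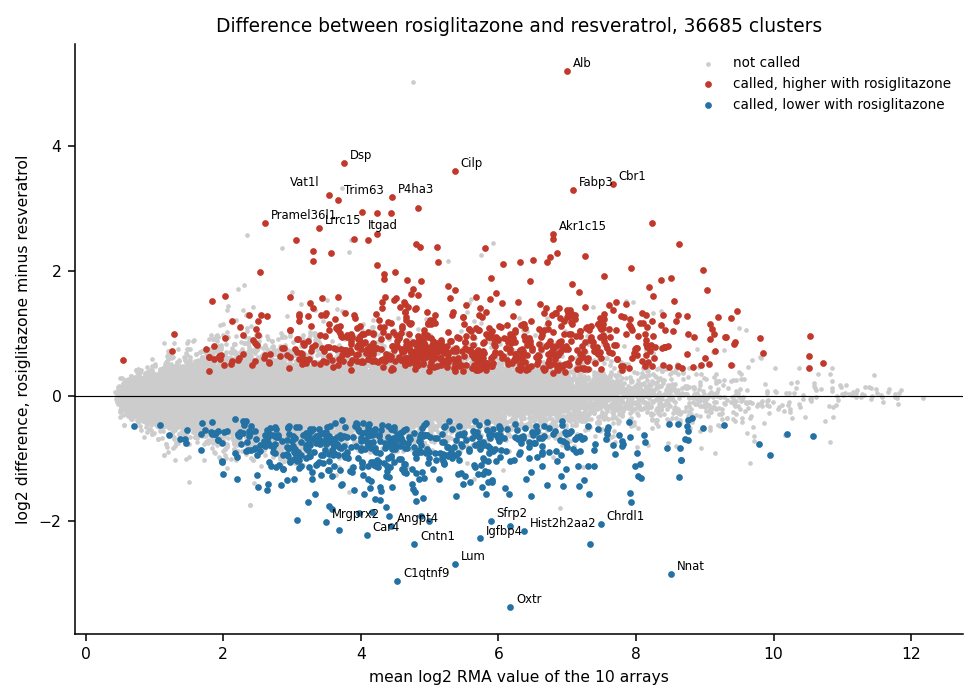
Log2 difference, rosiglitazone minus resveratrol (vertical axis), against the mean log2 RMA value of the 10 arrays (horizontal axis) for 36685 clusters, with the 807 called higher in red, the 615 called lower in blue and the rest in grey. Named genes are the 12 largest increases and the 12 largest decreases under the naming rule, from Alb at 5.20 to Oxtr at -3.37, and the grey point near 5 is Csn1s1, which was not called.

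The 12 genes with the largest increases were Alb, Dsp, Cilp, Cbr1, Fabp3, Vat1l, P4ha3, Trim63, Itgad, Pramel36l1, Lrrc15 and Akr1c15. All 12 were at least 6.05-fold higher with rosiglitazone. The resveratrol means of Dsp, Vat1l, Trim63, Pramel36l1 and Lrrc15, from 1.22 to 2.11, lay below the median level of all clusters (2.47), where RMA compresses differences and no detection call was used, so their folds are as measured and not exact. In 10 of them, all but Itgad and Pramel36l1, every rosiglitazone array lay above all 15 other arrays of the series. That pattern was found in 685 (1.87%) of all clusters and in 545 of the 807 called higher. The 12 genes were chosen for large differences without overlap, which favours it.

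Alb, which encodes albumin, the main protein of blood plasma, had log2 values of 9.74, 10.08, 9.46, 9.09 and 9.60 on the rosiglitazone arrays, against 4.65, 4.32, 4.28, 4.40 and 4.33 on the resveratrol arrays. The groups were separated by more than 4 log2 units at their closest. The difference was 5.20 (SE 0.17, 36.7-fold, adjusted p = 5.38e-08), the largest in the comparison. Obese rats averaged 4.26 ± 0.70 and lean rats 6.99 ± 1.12, so the lean level lay between those of the 2 treated groups and the obese level beside that of resveratrol.

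Fabp3, the fatty acid carrier of heart and oxidative muscle, lay at 8.85, 8.61, 8.44, 9.05 and 8.69 with rosiglitazone and at 4.68, 5.49, 5.31, 5.86 and 5.82 with resveratrol. Its 9.81-fold increase (log2 difference 3.29, SE 0.21, adjusted p = 1.14e-05) was one of the most even, since the lowest rosiglitazone array exceeded the highest resveratrol array by more than 2 log2 units. Cbr1, a carbonyl reductase, was 10.4-fold higher (9.55, 8.78, 9.13, 10.05 and 9.27 with rosiglitazone, against 5.48, 5.57, 7.07, 6.03 and 5.69 with resveratrol; adjusted p = 0.000128). A second cluster of the same symbol was 4.87-fold higher. Akr1c15, an aldo-keto reductase of a family with close copies, which the probes may share, was 6.05-fold higher at 8.09 ± 0.66 with rosiglitazone, against 5.49 ± 0.27 with resveratrol (SD, n = 5 each).

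Dsp, desmoplakin of the desmosome junction, had values of 6.11, 4.86, 6.63, 4.72 and 5.72 on the rosiglitazone arrays and 2.11, 1.48, 1.82, 2.0 and 2.04 on the resveratrol arrays, a 13.2-fold difference (adjusted p = 9.63e-05). Arrays 1, 3 and 5, those with milk genes, were the 3 highest, and arrays 2 and 4 still lay above every array of the other 3 groups. In lean rats, whose arrays 3, 4 and 5 had Csn1s1 above 11, Dsp averaged 2.47 ± 0.38. With arrays 1, 3 and 5 left out the log2 difference of Dsp was 2.91 (adjusted p = 0.000989). Itgad, an integrin alpha chain of leukocytes, ran in the same order of arrays, at 6.60, 4.48, 6.92, 3.71 and 5.76 with rosiglitazone and 2.01, 2.79, 2.51, 2.80 and 2.64 with resveratrol, and its log2 difference of 2.95 came down to 1.55 (adjusted p = 0.0397) without them. For Lrrc15, a membrane protein with leucine-rich repeats, the difference of 2.68 came down to 1.81 (adjusted p = 0.0477).

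Matrix and muscle genes made up part of the rest. Cilp, cartilage intermediate layer protein, lay at 7.33, 6.96, 7.97, 5.59 and 8.01 with rosiglitazone and 4.08, 4.25, 2.82, 3.62 and 3.07 with resveratrol, a 12.1-fold increase (adjusted p = 0.000811) in which array 4 was the lowest of the rosiglitazone group and still above the highest resveratrol array. P4ha3, a subunit of the prolyl hydroxylase that modifies collagen, was 9.10-fold higher (adjusted p = 1.58e-05). Trim63, a ubiquitin ligase best known from muscle, was 8.82-fold higher, with 4.91, 5.90, 6.17, 4.55 and 4.70 on the rosiglitazone arrays and 2.14, 2.06, 2.22, 1.73 and 2.36 on the resveratrol arrays. The muscle-rich array 3 was the highest for Trim63, and without it the log2 difference was 2.91 (adjusted p = 0.000261).

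The 12 genes with the largest decreases were Oxtr, C1qtnf9, Nnat, Lum, Cntn1, Igfbp4, Car4, Hist2h2aa2, Angpt4, Chrdl1, Mrgprx2 and Sfrp2. They were between 4.0-fold and 10.3-fold lower with rosiglitazone. Only for C1qtnf9, Car4 and Chrdl1 did every rosiglitazone array lie below all 15 other arrays. That was the pattern of 145 (0.395%) of all clusters and of 111 of the 615 called lower.

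Oxtr, the receptor of oxytocin, had values of 5.33, 4.14, 4.73, 4.33 and 3.92 on the rosiglitazone arrays, against 7.81, 8.16, 7.59, 7.75 and 7.98 on the resveratrol arrays. The log2 difference was -3.37 (SE 0.24, 10.3-fold, adjusted p = 2.02e-05), and no rosiglitazone array came within 2 log2 units of a resveratrol array. Obese rats (5.80 ± 0.79) and lean rats (6.21 ± 1.75) lay between the 2 treated groups on average. Igfbp4, a binding protein that restrains insulin-like growth factors, was placed in the same way, at 5.05, 4.14, 4.86, 4.35 and 4.60 with rosiglitazone and 6.89, 6.83, 6.54, 6.99 and 7.12 with resveratrol, with 5.75 ± 0.68 in obese and 6.43 ± 0.63 in lean rats. Its decrease was 4.83-fold (adjusted p = 4.33e-05).

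C1qtnf9, a secreted relative of adiponectin, lay at 2.87, 3.28, 3.19, 3.32 and 2.61 with rosiglitazone and at 6.10, 5.94, 5.88, 6.34 and 5.79 with resveratrol. The difference of -2.96 log2 units (SE 0.16, adjusted p = 5.88e-06) left more than 2 log2 units between the nearest arrays of the groups, and obese rats (5.54 ± 0.21) lay near the resveratrol level. Nnat, neuronatin, a small imprinted membrane protein, was 7.17-fold lower, at 6.36, 6.79, 6.34, 8.84 and 7.08 with rosiglitazone and 10.23, 10.15, 10.05, 9.52 and 9.69 with resveratrol (adjusted p = 0.00219). Rosiglitazone array 4 came closest to the resveratrol arrays, and with arrays 1, 3 and 5 left out the log2 difference of Nnat was -2.11 (adjusted p = 0.0858). A second Nnat cluster was 2.41-fold lower (adjusted p = 0.185 without arrays 1, 3 and 5).

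Several of the others encode secreted or surface proteins. Lum, the matrix proteoglycan lumican, was 6.40-fold lower, with 4.67, 2.77, 4.36, 4.06 and 4.27 on the rosiglitazone arrays and 6.17, 7.09, 6.99, 6.63 and 6.65 on the resveratrol arrays. Sfrp2, which modulates Wnt signals, averaged 4.89 ± 0.52 with rosiglitazone and 6.89 ± 0.56 with resveratrol, and Chrdl1, an antagonist of bone morphogenetic proteins, 6.47 ± 0.45 with rosiglitazone and 8.50 ± 0.27 with resveratrol (SD, n = 5 each). Angpt4, an angiopoietin that binds the vessel receptor Tek, was 4.20-fold lower, and Car4, a membrane-bound carbonic anhydrase of capillaries, was 4.63-fold lower. Hist2h2aa2 belongs to a set of near-identical histone H2A genes whose probes cannot be told apart. For Cntn1, a neural adhesion molecule, and Mrgprx2 the adjusted p was 0.0567 and 0.097 with arrays 1, 3 and 5 left out.

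**Figure D3:**
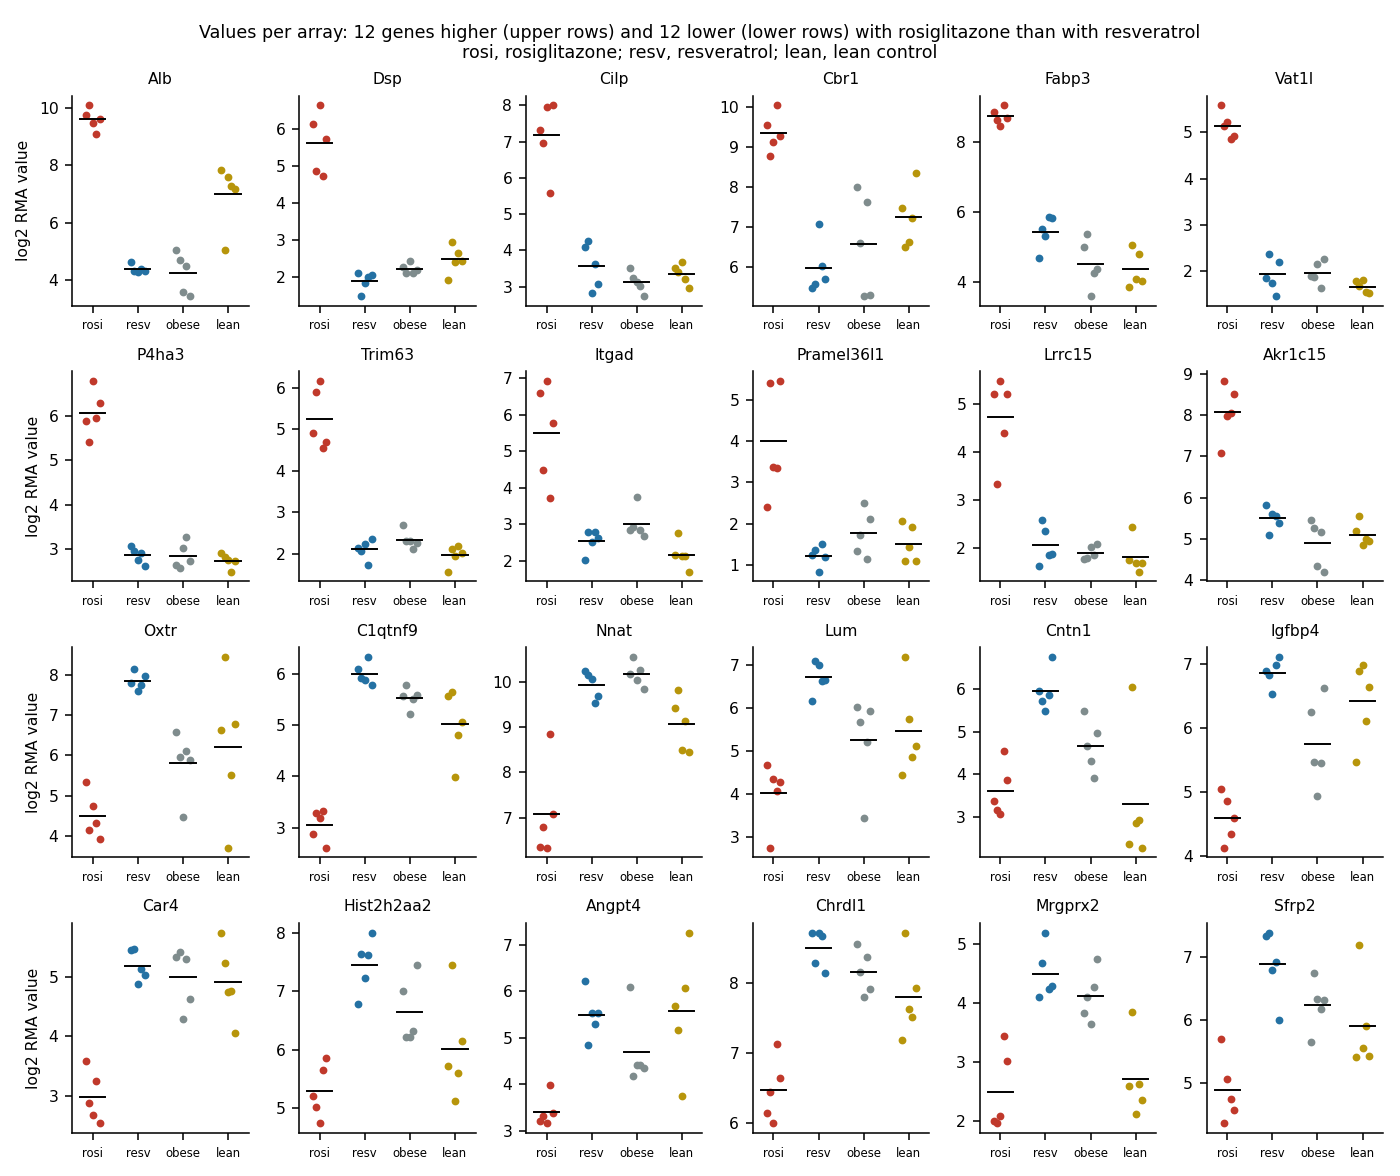
Log2 RMA values (vertical axes) of the 24 named genes on each array of the 4 groups (horizontal axes; points, arrays in label order; bars, group means). Rosiglitazone and resveratrol points do not overlap in any panel, and the resveratrol mean of Alb (4.40) lies beside the obese mean (4.26), whereas that of Oxtr (7.86) lies above both the obese and the lean mean.

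Genes of fatty acid oxidation were higher almost throughout. Of the list's 15 measured genes (16 listed), 14 were higher with rosiglitazone and 0 lower, where 3.61% of the 14824 clusters with 1 gene symbol were called higher and 2.45% lower. The median log2 difference of the list was 1.41, against -0.0043 over all clusters with 1 symbol. The list had 14 calls in the fit of all 20 arrays, without array 3, and without arrays 1, 3 and 5. In 13 of the genes all 5 rosiglitazone arrays lay above the 15 others.

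The carnitine shuttle that carries fatty acids into mitochondria was split. Cpt1b, the muscle and brown fat form of its entry enzyme, had values of 8.13, 8.35, 7.84, 7.92 and 8.01 with rosiglitazone and 5.44, 5.56, 5.46, 5.67 and 5.55 with resveratrol, a 5.72-fold increase (log2 difference 2.52, SE 0.12, adjusted p = 1.61e-06). Cpt1a, the liver form, was the 1 gene of the list that was not called, at 5.41, 4.90, 5.16, 5.50 and 5.17 with rosiglitazone and 5.24, 5.47, 5.16, 5.14 and 5.17 with resveratrol. The 95% confidence interval of its log2 difference ran from -0.29 to 0.28. The later steps of the shuttle, Slc25a20, the carnitine carrier, and Cpt2, were 2.99-fold and 2.45-fold higher.

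The listed beta-oxidation enzymes were those of very long, long and medium chains, and they were higher. Acads, the dehydrogenase of short chains, is not in the list and was picked after its value was seen. It was called higher too, with a log2 difference of 1.59 without arrays 1, 3 and 5 (limma adjusted p = 0.00485). Acadvl and Acadm, the dehydrogenases of very long and medium chains, were 2.65-fold and 2.18-fold higher, and Acadl, that of long chains, 3.70-fold. Hadha and Hadhb, the 2 subunits of the trifunctional protein, were 2.23-fold and 3.02-fold higher. Acaa2, the thiolase of the last step, lay at 9.87, 10.23, 9.98, 9.65 and 10.14 with rosiglitazone and 8.13, 8.07, 7.80, 7.87 and 7.95 with resveratrol, 4.03-fold apart (adjusted p = 1e-05) with more than 1 log2 unit between the nearest arrays. Ehhadh, a bifunctional enzyme of peroxisomes, was 3.23-fold higher, and the electron transfer genes Etfa, Etfb and Etfdh, which pass electrons to the respiratory chain, were 2.34-fold, 1.84-fold and 2.50-fold higher. The peroxisome assembly genes did not share this: of 12 clusters with Pex symbols, Pex3 was higher (1.90-fold), with a median log2 difference of 0.032 over the 12.

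Promoter windows from 250 bases before to 50 bases after the annotated start were available for 11 of the 14 called genes from RefSeq (GRCr8), and were searched for AGGTCA, the half-site of nuclear receptors, on either strand. It occurred in 2 of the 11, Acadvl and Hadhb, and in 16.9% of 27457 genes with a window. The spaced pair of half-sites that PPAR and RXR dimers bind, searched as AGGNCA followed after 1 free base by AGGNCA again, on either strand, occurred in 0 of the 11 windows and in 0.437% of all genes. The 2 windows are printed to show where the half-sites lie, in capitals; they start at positions 82 and 234 of the Acadvl window (chr10:55236656-55236955, minus strand) and, on the opposite strand as TGACCT, at position 293 of the Hadhb window (chr6:31907451-31907750, minus strand).
Acadvl: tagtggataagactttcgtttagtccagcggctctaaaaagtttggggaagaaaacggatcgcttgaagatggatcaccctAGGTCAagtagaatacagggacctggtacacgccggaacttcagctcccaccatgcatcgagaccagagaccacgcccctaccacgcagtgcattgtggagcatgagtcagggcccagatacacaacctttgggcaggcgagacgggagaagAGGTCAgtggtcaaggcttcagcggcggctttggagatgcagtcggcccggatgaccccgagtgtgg
Hadhb: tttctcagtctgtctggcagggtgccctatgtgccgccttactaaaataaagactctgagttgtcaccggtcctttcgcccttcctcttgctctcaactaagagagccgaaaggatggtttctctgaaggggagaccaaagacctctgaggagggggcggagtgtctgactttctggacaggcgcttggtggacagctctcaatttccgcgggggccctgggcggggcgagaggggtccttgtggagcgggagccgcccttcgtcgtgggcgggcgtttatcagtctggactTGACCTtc
A match describes these letters only, and no binding was measured.

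Acadvl, the gene of the first window, lay at 7.25, 7.50, 7.59, 7.22 and 7.41 with rosiglitazone and 5.99, 5.82, 5.93, 6.07 and 6.13 with resveratrol (log2 difference 1.41, SE 0.11, adjusted p = 4.31e-05). Hadhb, that of the second, lay at 8.94, 9.17, 9.07, 8.89 and 9.16 with rosiglitazone and 7.36, 7.38, 7.35, 7.57 and 7.60 with resveratrol (log2 difference 1.59, SE 0.10, adjusted p = 1.16e-05). For both genes the obese and lean means were at or below the resveratrol mean.

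All 12 measured genes of the respiratory chain list (15 listed) were higher with rosiglitazone, with a median log2 difference of 0.94. The share of all clusters with 1 symbol that were called higher was 3.61%. In the fit of all 20 arrays 11 of the 12 were called, and 8 without arrays 1, 3 and 5, where Ndufa4 and Cox4i1 were among those not called. Cox4i1 also lost its call without array 3 (limma adjusted p = 0.0508). Ndufv1, a core subunit of complex I, lay at 7.44, 7.90, 7.50, 7.35 and 7.73 with rosiglitazone and 6.26, 6.40, 5.95, 6.17 and 6.12 with resveratrol, 2.65-fold apart (adjusted p = 0.000144). Sdha and Sdhb, of complex II, were 2.20-fold and 2.15-fold higher, Uqcrc1 and Uqcrc2, of complex III, 2.51-fold and 2.43-fold. The smallest increases of the list were those of Ndufa4 (1.41-fold) and Cox4i1 (1.48-fold), subunits at the cytochrome c oxidase end of the chain. The promoter windows of 10 of these genes held AGGTCA in 2, Atp5f1a and Sdhb.

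Wider sets, grouped by gene symbol after the values had been seen, were counted as well. They are not subunits alone. The complex I set, of Nduf symbols, also holds assembly factors such as Ndufaf1, the pseudogene symbols Ndufs6-ps1 and Ndufb4-ps9, and Ndufa4. The complex III set, of Uqcr symbols and Cyc1, holds the pseudogene symbol Uqcr10-ps1. Of 6 clusters of succinate dehydrogenase and its assembly factors 5 were higher, of 8 of complex III 6 were, and of 46 clusters of complex I 21 were, with median log2 differences of 0.79, 0.88 and 0.49. For cytochrome c oxidase 4 of 17 clusters were higher (median 0.26), for ATP synthase 8 of 21 (median 0.36), and for the mitochondrial ribosome 14 of 64 (median 0.31). The fit of all 20 arrays called 4, 5, 14, 5, 6 and 8 of these sets in the same order. Without arrays 1, 3 and 5 the counts were 3, 4, 9, 1, 4 and 1, and without array 3 that of cytochrome c oxidase was 2. The shares of all clusters called in either direction were 2.2% with all 20 arrays, 1.1% without arrays 1, 3 and 5 and 3.16% without array 3. The mitochondrial ribosome had 1 call with the within-array SD as a covariate and 5 with the replicate number as a block. Levels differed between the sets: 11 of the 17 cytochrome c oxidase clusters and 42 of the 46 complex I clusters lay above the median level, and when the test was limited to clusters above it, 7 of the 11 (median 0.57) and 29 of the 42 (median 0.54) were higher. That test was fitted and adjusted over the brighter clusters alone, and its share of calls is not given here. The counts from it therefore do not compare with those on all clusters. No difference between complexes was tested. On the 10 arrays no cluster of the 6 sets was lower. Beside these counts and those that follow, 3.61% of clusters with 1 symbol were called higher and 2.45% lower. The cytosolic ribosome stood at a median of 0.010, with 0 of 143 clusters called by limma and 12 of them under an unadjusted p of 0.05. Of all 36685 clusters, 5475 lay under that unadjusted p. Of 39 proteasome clusters 7 were higher on the 10 arrays, and 0 were called by limma in the fit of all 20 or without arrays 1, 3 and 5. Of the 7, Psma4, Psmb7 and Psmd2 also lost their calls without array 3.

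Every measured gene of the citric acid cycle and of pyruvate dehydrogenase, the complex that feeds it, was higher: 12 of 12, with a median log2 difference of 1.28. This set too was put together after the values had been seen. Over all clusters with 1 gene symbol 3.61% were called higher. All 12 were also called in the fit of all 20 arrays and without arrays 1, 3 and 5, and in all 12 the 5 rosiglitazone arrays lay above the 15 others. Pdhb, a subunit of pyruvate dehydrogenase, had the largest difference, with 8.03, 8.08, 8.01, 8.02 and 7.83 on the rosiglitazone arrays and 6.44, 6.27, 6.23, 6.35 and 6.38 on the resveratrol arrays (log2 difference 1.66, SE 0.094, adjusted p = 5.99e-06). Neither group spread over more than 0.3 log2 units for this gene. Idh3a, a subunit of isocitrate dehydrogenase, and Cs, citrate synthase, which makes the first intermediate, were 2.84-fold and 2.44-fold higher. Pc, pyruvate carboxylase, which refills the cycle, was 3.78-fold higher; it belongs to no list and was picked after its value was seen.

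**Figure D4:**
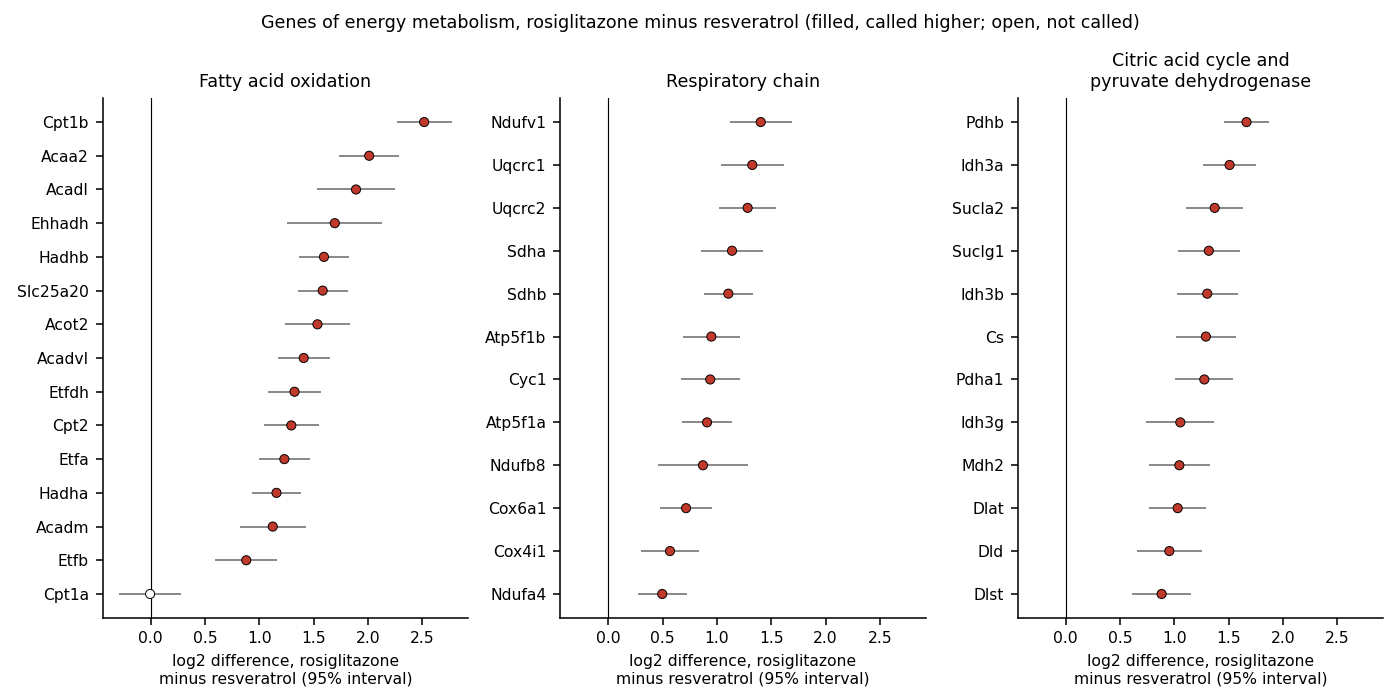
Log2 difference, rosiglitazone minus resveratrol (horizontal axes, with 95% confidence intervals), of each measured gene of 3 sets of energy metabolism (vertical axes); filled points were called higher and open points were not called. All 12 respiratory chain and all 12 citric acid cycle genes and 14 of 15 fatty acid oxidation genes are filled, and Cpt1a alone sits at 0. The citric acid cycle set was put together after the values had been seen.

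Fatty acid synthesis was higher in part. Of 6 measured genes (9 listed) 3 were higher and 0 lower, beside 3.61% higher and 2.45% lower of all clusters with 1 symbol. The same count held in the fit of all 20 arrays and without arrays 1, 3 and 5. Me1, malic enzyme, which supplies NADPH, lay at 9.97, 9.89, 9.96, 9.80 and 9.63 with rosiglitazone and 7.57, 7.05, 7.27, 7.46 and 7.74 with resveratrol, 5.40-fold apart (adjusted p = 5.99e-06). Elovl6, which elongates fatty acids, was 4.74-fold higher (adjusted p = 0.000585), and Acly, which makes cytosolic acetyl-CoA, was 4.15-fold higher (adjusted p = 0.00151). Scd, Thrsp and Srebf1 were not called, at log2 differences of 0.36, 0.34 and 0.39.

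Genes that PPAR gamma is best known for in fat cells were mostly not called. Of 13 measured (16 listed), 2 were higher and 0 lower, with a median log2 difference of 0.082. Over all clusters with 1 gene symbol 3.61% were called higher and 2.45% lower. The same shares stand beside the glycerol, brown fat and hormone counts that follow. Slc27a1, a fatty acid transporter, lay at 7.62, 7.12, 7.58, 7.60 and 6.99 with rosiglitazone and 5.50, 5.09, 5.20, 5.38 and 5.02 with resveratrol, 4.42-fold apart (adjusted p = 2.86e-05). Pnpla2, the lipase that starts triglyceride breakdown, was 1.37-fold higher (adjusted p = 0.0388) and missed the threshold in the fit of all 20 arrays (adjusted p = 0.0858), without array 3 (0.0532) and without arrays 1, 3 and 5 (0.197). Its log2 difference was 0.45 on the 10 arrays and 0.53 without arrays 1, 3 and 5. The mean of the 13 genes, Slc27a1 included, lay between 9.24 and 9.48 with rosiglitazone and between 9.10 and 9.20 with resveratrol. The groups did not overlap in this mean. Gene by gene they did not overlap for 2 of the 13, Slc27a1 and Pnpla2. How far Slc27a1 alone sets the mean apart was not tested. For Fabp4 the log2 difference was 0.052 (95% confidence interval -0.14 to 0.25), for the fatty acid receptor Cd36 0.11 (-0.091 to 0.32), and for lipoprotein lipase, Lpl, -0.048 (-0.25 to 0.15). These 3 genes lay above 10 log2 units on every array of both groups. Of 4 measured genes of glycerol supply (5 listed) 1 was higher and 0 lower. Pck1, which helps make the glycerol backbone, stood at -0.56 and was not called. Pdk4, the kinase that shuts pyruvate dehydrogenase, was 2.40-fold higher on the 10 arrays (adjusted p = 0.0325) and was not called on all 20 (adjusted p = 0.177), without array 3 (0.0738) or without arrays 1, 3 and 5 (0.273).

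The brown fat list gave 4 higher of 8 measured genes (10 listed) and 0 lower. Fabp3 and Cpt1b are described above, and the other two were Cidea and Ppargc1a. Cidea, a droplet protein of brown and beige fat cells, lay at 10.32, 10.48, 10.18, 10.17 and 10.18 with rosiglitazone and 9.23, 9.25, 9.50, 9.38 and 9.30 with resveratrol, 1.91-fold apart (adjusted p = 0.000472, and 0.233 in the fit of all 20 arrays). Ppargc1a, a coactivator of mitochondrial genes, was 1.59-fold higher at 3.42, 2.97, 2.64, 3.27 and 2.75 with rosiglitazone and 2.54, 2.22, 2.33, 2.31 and 2.32 with resveratrol (adjusted p = 0.0338). That call was lost in 10 of 20 alternatives, among them 7 of the 10 that left out 1 array, and without arrays 1, 3 and 5 (adjusted p = 0.0584). The log2 difference of Ppargc1a was 0.67 on the 10 arrays and 0.78 without arrays 1, 3 and 5. Ucp1 itself averaged 1.57 ± 0.17 with rosiglitazone and 1.45 ± 0.45 with resveratrol (SD, n = 5 each), below the median value of every array. Dio2, Elovl3 and Cox8b, also genes of brown fat, lay at or below 2.60 on all 10 arrays and were not called.

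The hormones of fat gave 1 gene higher and 1 lower of 6 measured (7 listed), and both calls were lost in the fit of all 20 arrays. Lep, leptin, lay at 9.06, 9.95, 8.96, 10.09 and 9.35 with rosiglitazone and 10.30, 10.37, 10.41, 10.57 and 10.45 with resveratrol, a 1.92-fold decrease (adjusted p = 0.0288, and 0.569 with all 20 arrays). Without array 3 its adjusted p was 0.0585, and without arrays 1, 3 and 5 it was 0.288. Cfd, adipsin, was 1.70-fold higher (adjusted p = 0.0163, against 0.237 with all 20 arrays and 0.111 without arrays 1, 3 and 5). Its log2 difference was 0.77 on the 10 arrays and 0.85 without arrays 1, 3 and 5. Adipoq differed by 0.089 log2 units (95% confidence interval -0.11 to 0.29).

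Immune and stromal lists were short, and their counts stand beside the 3.61% of clusters with 1 symbol that were called higher and the 2.45% called lower. Of 8 measured inflammation genes (9 listed) 1 was lower, Cd68, a lysosomal protein of macrophages, at 5.38, 5.60, 5.54, 5.82 and 5.93 with rosiglitazone and 6.01, 7.14, 6.87, 6.54 and 6.89 with resveratrol (2.05-fold, adjusted p = 0.0125, against 0.12 with all 20 arrays and 0.182 without arrays 1, 3 and 5). The median log2 difference of the 4 measured macrophage markers, which include Cd68, was -0.32. The other 3 had log2 differences of -0.16 for Adgre1, -0.48 for Csf1r and -0.12 for Itgam, none of them called. Ccl2, a chemokine, spread over more than 2 log2 units within the rosiglitazone group, 5.36, 5.47, 6.47, 7.83 and 6.56, and was not called. Of 8 matrix genes (9 listed) 1 was higher, Lox, which cross-links collagen (1.92-fold, adjusted p = 0.0186, against 0.251 with all 20 arrays and 0.17 without arrays 1, 3 and 5), and Col1a1 stood at -1.08, not called. Of 31 clusters with collagen symbols, Col8a1 was higher and Col28a1 and Col6a6 were lower, Col28a1 with an adjusted p of 0.0882 without arrays 1, 3 and 5. Of the T cell, B cell, fibroblast, skeletal muscle, keratinocyte, epithelial and Schwann cell markers, limma called 0. Of the fibroblast markers 2 had an unadjusted p under 0.05, as did 5475 of all 36685 clusters.

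The endothelial markers moved in both directions. Cdh5, the cadherin of vessel walls, had values of 7.34, 7.94, 7.17, 7.77 and 7.33 with rosiglitazone and 8.49, 8.62, 8.56, 8.84 and 8.48 with resveratrol, a 2.13-fold decrease (adjusted p = 0.00208). Tek, the angiopoietin receptor, was 1.60-fold lower (adjusted p = 0.0162). Vwf, von Willebrand factor, was 1.86-fold higher, at 5.44, 5.93, 5.21, 5.82 and 5.63 with rosiglitazone and 4.66, 4.63, 4.52, 4.77 and 5.00 with resveratrol (adjusted p = 0.00599). All 3 calls held in the fit of all 20 arrays, and of the 3 only that of Vwf remained without arrays 1, 3 and 5. The groups did not overlap for any of the 3.

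Lists chosen for what resveratrol is studied for were also short, so that their counts are set beside the same 3.61% and 2.45%. Counts under an unadjusted p of 0.05 are set beside 5475 of all 36685 clusters. Of 6 measured sirtuin and AMPK genes (8 listed) 0 were called by limma, with 1 of them under an unadjusted p of 0.05 and a median log2 difference of -0.025. Prkaa2, a catalytic AMPK subunit, stood at -0.33, the farthest from 0. Of 10 antioxidant genes 3 were higher with rosiglitazone, Sod2, the mitochondrial superoxide dismutase (1.95-fold), its cytosolic form Sod1 (1.76-fold), and Gclc, of glutathione synthesis (1.56-fold). Only Sod2 was also called with all 20 arrays, and only Sod2 without arrays 1, 3 and 5. Of 8 clock genes 1 was lower, Per2 (1.77-fold, adjusted p = 0.0148, and 0.0827 with all 20 arrays), and of 5 cholesterol synthesis genes 0 were called by limma, 3 of them under an unadjusted p of 0.05.

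**Figure D5:**
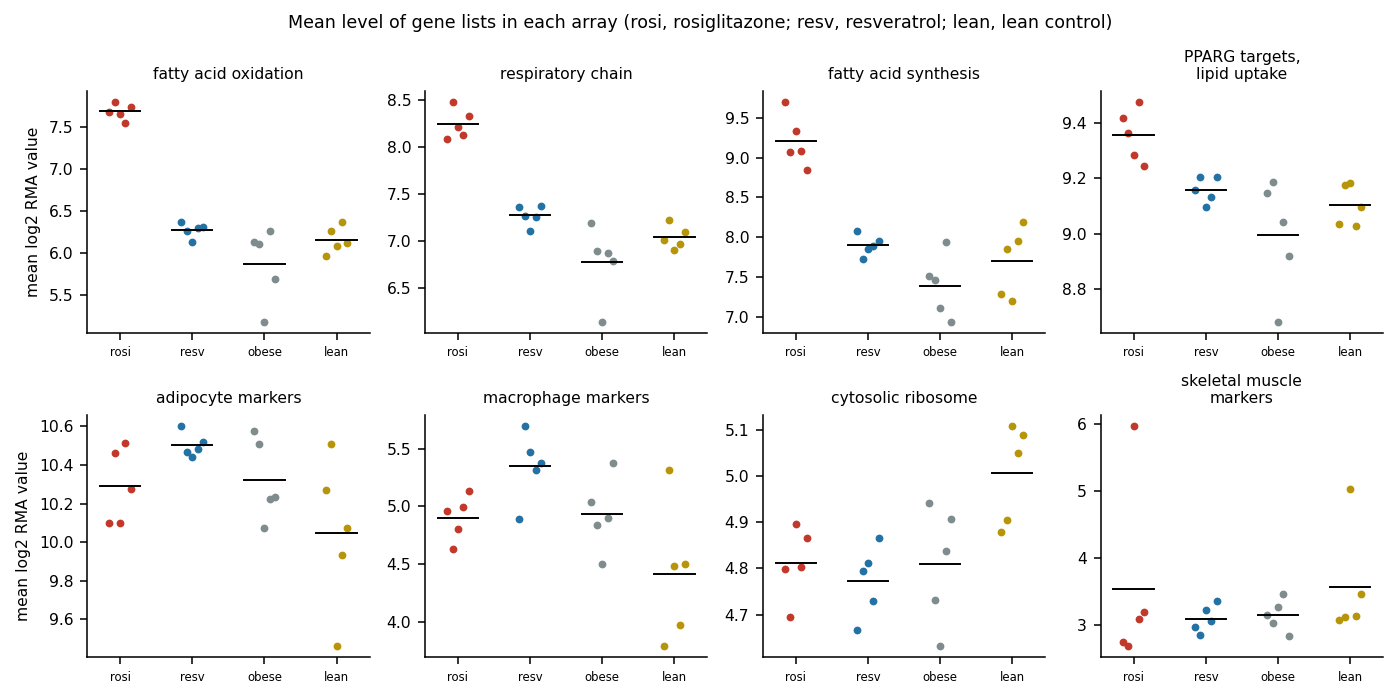
Mean log2 RMA value (vertical axes) of 8 gene lists on each array of the 4 groups (horizontal axes; points, arrays in label order; bars, group means). The fatty acid oxidation mean lies between 7.56 and 7.80 on the rosiglitazone arrays and between 6.13 and 6.37 on the resveratrol arrays. The PPARG target mean lies between 9.24 and 9.48 on the rosiglitazone arrays and between 9.10 and 9.20 on the resveratrol arrays. It includes Slc27a1, which was 4.42-fold higher with rosiglitazone, and the median log2 difference of that list was 0.082. The skeletal muscle mean is highest on rosiglitazone array 3 (5.96), followed by lean array 3 (5.03).

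The position of the 2 groups relative to the obese and lean arrays differed between the higher and the lower clusters. These positions use the same arrays as the calls and are given as a description. Of the 807 clusters called higher, the rosiglitazone mean was the highest of the 4 groups in 782 (96.9%) and the resveratrol mean the lowest in 109 (13.5%). Of the 615 called lower, the rosiglitazone mean was the lowest in 541 (88.0%) and the resveratrol mean the highest in 441 (71.7%). Resveratrol lay nearer than rosiglitazone to the mean of the obese and lean groups in 94.5% of the higher and 66.2% of the lower clusters.

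Few clusters set the resveratrol arrays apart from all others. All 5 resveratrol arrays lay above the 15 others in 14 clusters (0.0382%) and below them in 2 (0.00545%). Among the called clusters with 1 gene symbol there were 5, all lower with rosiglitazone. Grifin, a galectin-related protein of the lens, had values of 4.34, 4.15, 4.26, 4.16 and 4.47 with rosiglitazone and 5.35, 5.63, 5.32, 5.78 and 5.38 with resveratrol (2.32-fold, adjusted p = 0.000218), with 4.49 ± 0.53 in obese and 4.66 ± 0.50 in lean rats. The other 4 were Tagln2, an actin-binding protein, Slc15a2, a peptide transporter, Zc3h12c, a zinc finger protein, and Crkl, a signalling adaptor, at log2 differences of -0.74, -0.72, -0.57 and -0.47. Of the 5, Grifin alone was called in the fit of all 20 arrays (adjusted p = 0.00493), and Grifin alone without arrays 1, 3 and 5. Crkl also lost its call without array 3 (limma adjusted p = 0.0574).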

How the data were processed

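Each array, a Rat Gene 2.1 ST, received biotin-labelled cRNA made from 100 ng of total RNA, per the labels' protocols. The deposited log2 values run from -0.16 to 12.5 and were made with RMA, per the submitters' processing notes. RMA subtracts a modelled background, normalises the arrays to one another and summarises each cluster's probes into 1 value, and it compresses differences of dim clusters. The sources used here name neither its software and settings nor any array batch, so batch differences could not be tested. No pair of the 10 arrays held identical values.

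Symbols came from GEO's platform annotation, which gave 1 symbol to 14824 clusters, several to 829 and none to 21032, left unnamed here; 14670 of the 14824 matched RefSeq by gene ID. Values were used as deposited. One model per cluster was fitted to the 10 arrays with limma 3.58.1 (lmFit and eBayes, 8 residual and 3.61 prior degrees of freedom) in R 4.3.3, with Benjamini-Hochberg adjustment over all 36685 clusters and a threshold of 0.05. "Called" means past this threshold. The 10 arrays were fitted alone because the lean and obese arrays spread more widely (median SD of a cluster 0.27 and 0.36, against 0.23 with rosiglitazone and 0.22 with resveratrol). The median SE of a log2 difference was 0.149, and the number of arrays limits the precision.

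Named genes were called in both this fit and that of all 20 arrays, had no overlap between the groups and a brighter mean above the median level of 2.47, and were the 12 largest differences each way with 1 symbol. Members, gene lists, markers and tests were chosen with earlier results of these data known; the sets by gene symbol, the milk genes and the arrays left out together were chosen after the values were seen. Alternatives were the fit of all 20 arrays, quantile normalisation, centring on the median, 2 filters on dim clusters, a trended and robust prior, array weights, the within-array SD as a covariate, the replicate number as a block, a minimum of 1.5-fold and each array left out in turn. The code was tested on simulated data.

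Arrays of the 2 groups share replicate numbers in the labels. The correlation of the deviations of same-numbered arrays from their group means ran from -0.13 to 0.064, so the numbers were not taken to pair the samples. Python 3.11.15 with matplotlib 3.10.9 drew the figures.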

Additional observations from a re-analysis of the deposited data

Results flagged for a closer look

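Within each group of 5 arrays, the highest and the lowest value of 4 array measures, of the 24 named genes and of the mean level of each gene list were checked for a large gap to the nearest other array. Of 126 groups of 5 values, 7 held 1 array that stood apart, where chance gives about 1 in 20, or 6.3.

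Of these, 4 belong to the rosiglitazone group. Array 3 had a mean of 5.96 over the skeletal muscle markers, against 2.69 to 3.20 on the other 4 arrays, and a Krt14 level of 6.15, against 2.27 to 3.08. Array 4 had an Angpt4 level of 3.98, against 3.16 to 3.39. Array 1 had a brown fat mean of 4.73, against 4.54 to 4.59.

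The other 3 belong to the resveratrol group. Array 1 had a sirtuin and AMPK mean of 5.52, against 5.22 to 5.27. Array 2 had an antioxidant mean of 6.60, against 6.16 to 6.28; Hmox1, heme oxygenase 1, was 4.0, 7.39, 4.52, 4.32 and 4.55 on resveratrol arrays 1 to 5. Array 5 had an ATP synthase mean of 5.40, against 5.22 to 5.27.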

How the results depend on the processing

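The count of 1422 called clusters fell to 808 (461 higher, 347 lower) in the fit of all 20 arrays and to 521 (242 higher, 279 lower, 415 shared) with the within-array SD as a covariate. It fell to 404 (279 higher, 125 lower) with rosiglitazone arrays 1, 3 and 5 left out together, where 2 arrays stand for the group. With the replicate number as a block, which the labels do not state as a pairing and the correlations do not bear out, 812 clusters were called (473 higher, 339 lower, 767 shared). Leaving out 1 array at a time gave 986 to 1294, and the other alternatives 1145 to 1768. Counts of calls with at least 2-fold and 4-fold change stayed within 1.5 times under every alternative.

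The share of calls that were higher was 65.4% after centring and 52.0% after quantile normalisation, against 56.8% as reported. It was 46.4% with the SD covariate and 69.1% without arrays 1, 3 and 5. The difference of the array median ran from -0.0502 to -0.0307 with 1 array left out and missed the threshold in 6 of 10 cases; the values of those 6 lay between -0.0450 and -0.0307. The named genes were chosen for a call in both fits and a large difference, so that their calls say little about stability; 5 values lost the call: Pramel36l1 (2.71) and Sfrp2 (-2.07) with the SD covariate, and Nnat, Cntn1 and Mrgprx2 as given above. Fatty acid oxidation gave 13 to 14 calls under all alternatives, the respiratory chain 8 to 12 and the citric acid cycle 9 to 12, whereas complex I gave 6 to 29 and the mitochondrial ribosome 1 to 17. The causes were not tested. The 95% confidence interval of a log2 difference had a median half-width of 0.33. It lay within 2-fold of no change for 90.2% of clusters and within 1.5-fold for 63.2%.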

Other observations

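The genes below were picked after their values were seen and are given as values. Some genes known from vessel lining were among those called lower with rosiglitazone. Emcn, endomucin of capillaries and veins, averaged 6.00 ± 0.22 with rosiglitazone and 7.42 ± 0.16 with resveratrol (SD, n = 5 each), 2.68-fold apart (limma adjusted p = 0.000111). Jam2, a junction protein, was 2.71-fold lower, Cldn5, the claudin of tight vessel junctions, 2.86-fold, Cd34, also a marker of fat progenitors, 2.72-fold, Cd93 2.46-fold and Podxl 2.31-fold. Of these, Cd93 was not called without rosiglitazone arrays 1, 3 and 5 (adjusted p = 0.112). For Emcn, Jam2 and Podxl all 5 rosiglitazone arrays lay below the 15 others. Vwf was higher in the same samples, and Mmrn1 was high on rosiglitazone arrays 1, 3 and 5. Flt4, a receptor of vessel lining, was called higher too, though not without arrays 1, 3 and 5 (limma adjusted p = 0.109).

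A few secreted factors, picked the same way, were called lower and others higher, and no list of such factors was counted. Stc1 and Stc2 were among those higher. Without rosiglitazone arrays 1, 3 and 5 their log2 differences were 1.90 and 1.60 (limma adjusted p = 0.0161 and 0.0138). The factors that follow were lower. Bmp3 averaged 2.66 ± 0.17 with rosiglitazone and 4.40 ± 0.54 with resveratrol (3.35-fold), Bmp4 2.94 ± 0.37 with rosiglitazone and 4.21 ± 0.36 with resveratrol (2.41-fold), and Gdf10, of the same family, 3.03 ± 0.35 with rosiglitazone and 4.42 ± 0.58 with resveratrol (2.63-fold). Fgf10, a growth factor of fat progenitors, was 2.38-fold lower. Without rosiglitazone arrays 1, 3 and 5 the log2 difference was -1.60 for Gdf10 (limma adjusted p = 0.112) and -1.34 for Fgf10 (0.0517). Neither difference was smaller than on the 10 arrays. Thy1, a surface marker of stromal cells, was 2.59-fold lower, whereas the 4 fibroblast markers were not called.

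Of the 4 macrophage markers 1 was called, and these genes known from leukocytes were picked beside them. Trem2, a lipid receptor of macrophages, averaged 3.79 ± 0.24 with rosiglitazone and 4.99 ± 0.47 with resveratrol (2.30-fold, adjusted p = 0.00819), Adgre4 3.56 ± 0.25 with rosiglitazone and 5.01 ± 0.25 with resveratrol, and the chemokine Ccl6 7.42 ± 0.29 with rosiglitazone and 8.72 ± 0.28 with resveratrol. Cd5l, which macrophages secrete, was 2.51-fold lower, and its groups overlapped. Without rosiglitazone arrays 1, 3 and 5 neither Trem2 (adjusted p = 0.169) nor Cd5l (0.338) was called. Itgad, an integrin chain of leukocytes, was higher with rosiglitazone, as given above. Trem3 was called higher too, also without rosiglitazone arrays 1, 3 and 5 (limma adjusted p = 0.032). Lean rats averaged 3.82 ± 0.40 for Trem2 and 2.32 ± 0.54 for Cd5l, close to the rosiglitazone means.

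Milk genes appeared in male rats. Lalba, alpha-lactalbumin, lay at 4.66, 1.07, 6.04, 1.02 and 5.34 on the rosiglitazone arrays and 0.94, 0.86, 1.10, 0.95 and 1.44 on the resveratrol arrays. It reached 9.17 to 10.44 on lean arrays 3, 4 and 5 and 8.35 and 9.90 on obese arrays 3 and 4, where Epcam was also at its highest. The limma adjusted p of the rosiglitazone against resveratrol difference was 0.176.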
